A study of Homo sapiens with 4 samples.

Results

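The antisense long non-coding RNA genes of HEK293T cells were examined in RNA-seq of MORC2 knock-out (KO) and wild-type (WT) cells. A gene was included if its symbol ended in -AS and a number and if it had 50 or more counts in each of the 4 libraries, which kept 290 of the 1575 genes with such symbols and of the 28775 genes in the table. MORC2-AS1 and ZNF22-AS1 were left out by name. ZNF22-AS1 also had the counts required and was among the genes that the test below called, with a log2 fold change of 1.90 (standard error (SE) 0.17, adjusted p = 1.44e-04 in edgeR), so the counts of called genes given here do not cover every antisense gene. The number of counts decided the rest. Because the minimum applied to each library, genes under 50 counts in WT alone were left out, which can remove genes that are much higher in KO.

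HEK293T is a line of human embryonic kidney cells that grows as a transformed culture. Each MORC2 KO library came from a bulk culture edited with Cas9 protein and a gRNA against MORC2, gRNA 1 for KO1 and gRNA 2 for KO2, and was thus a pool of edited cells, not a clone. WT1 and WT2 were independent replicates of the same line without the edit, according to the methods. No other treatment was given for any of the 4 samples, and polyA RNA was sequenced as 65-base read pairs.

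Antisense long non-coding RNAs are transcribed from the strand opposite to a named gene, their sense gene, and most are spliced and polyadenylated without coding for a protein. Many start close to the start of the sense gene and run away from it (head to head), others run into its end (tail to tail) or lie wholly within it. Some are known to act on the neighbouring gene or on other RNAs, and for most no function has been described. MORC2 is an ATPase that compacts DNA and works with the HUSH complex, which silences retroelements and some genes through methylation of histone H3 on lysine 9.

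The libraries held between 53970043 and 64312514 counted read pairs, and 16675 genes passed the filter on low counts. MORC2 itself had 3064 and 3637 counts in KO1 and KO2 and 5131 and 4669 in WT1 and WT2, and fell by 0.71 on the log2 scale (edgeR). KO1 and KO2 lay farther from each other than WT1 from WT2, with a chi-square per degree of freedom over genes of 16.8 against 6.56. Because whole cultures were measured, fewer cells of a kind and less RNA per cell cannot be told apart. An exact permutation test of 2 against 2 libraries cannot give a two-sided p below 0.333, so that tests of single genes rest on the edgeR model across all genes.

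To show what the starts of these genes look like, the windows from 250 bases before to 50 bases after the start are printed for 5 of the 7 antisense genes that were called or had the 6 highest log2 fold changes, all 5 for which RefSeq (GRCh38.p14) gave a window. Each is on the strand of the antisense gene, written 5′ to 3′. Capitals mark matches on either strand to the GC box (GGGCGG), the CCAAT box and the ETS core (CCGGAAGT). RAB4A-AS1 (chr1:229271105-229271404, minus strand) and MCM3AP-AS1 (chr21:46228981-46229280, plus strand) were called higher in MORC2 KO. ZNF45-AS1 (chr19:43901616-43901915, plus strand), ZNF606-AS1 (chr19:58002644-58002943, plus strand) and ICA1-AS1 (chr7:8261975-8262274, plus strand) had high log2 fold changes that did not pass the test.
RAB4A-AS1: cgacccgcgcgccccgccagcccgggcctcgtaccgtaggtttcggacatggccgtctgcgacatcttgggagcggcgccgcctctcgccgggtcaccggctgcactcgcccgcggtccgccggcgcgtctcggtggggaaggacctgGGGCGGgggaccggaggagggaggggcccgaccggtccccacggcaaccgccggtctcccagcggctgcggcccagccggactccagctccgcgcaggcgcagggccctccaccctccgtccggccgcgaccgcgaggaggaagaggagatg
MCM3AP-AS1: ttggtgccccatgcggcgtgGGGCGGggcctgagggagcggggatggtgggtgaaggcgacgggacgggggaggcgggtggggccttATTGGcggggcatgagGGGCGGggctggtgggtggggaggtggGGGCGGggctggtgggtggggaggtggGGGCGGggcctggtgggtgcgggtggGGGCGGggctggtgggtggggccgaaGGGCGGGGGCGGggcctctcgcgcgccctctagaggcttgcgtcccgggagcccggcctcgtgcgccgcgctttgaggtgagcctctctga
ZNF45-AS1: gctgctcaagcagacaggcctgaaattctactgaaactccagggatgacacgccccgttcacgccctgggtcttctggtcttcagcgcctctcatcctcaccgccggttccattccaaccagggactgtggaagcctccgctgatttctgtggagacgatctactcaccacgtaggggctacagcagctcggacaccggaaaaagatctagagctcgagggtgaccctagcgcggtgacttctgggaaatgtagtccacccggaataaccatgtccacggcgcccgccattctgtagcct
ZNF606-AS1: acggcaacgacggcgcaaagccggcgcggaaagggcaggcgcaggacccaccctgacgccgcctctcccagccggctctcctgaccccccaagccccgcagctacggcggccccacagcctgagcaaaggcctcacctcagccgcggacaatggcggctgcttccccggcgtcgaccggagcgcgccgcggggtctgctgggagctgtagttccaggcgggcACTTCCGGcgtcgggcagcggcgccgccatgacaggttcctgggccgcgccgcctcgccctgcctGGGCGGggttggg
ICA1-AS1: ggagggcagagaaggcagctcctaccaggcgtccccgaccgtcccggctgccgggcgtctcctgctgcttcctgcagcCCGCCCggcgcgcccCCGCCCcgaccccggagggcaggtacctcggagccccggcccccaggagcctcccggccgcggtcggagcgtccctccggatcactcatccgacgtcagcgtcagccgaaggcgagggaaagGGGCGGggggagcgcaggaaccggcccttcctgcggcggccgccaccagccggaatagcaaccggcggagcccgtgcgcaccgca

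These windows were unlike each other. The window of MCM3AP-AS1 held 7 GC boxes in a repeated stretch and 1 CCAAT box, that of ICA1-AS1 held 3 GC boxes, and those of RAB4A-AS1 and ZNF606-AS1 held 1 each. ZNF606-AS1 also held 1 ETS core, and the window of ZNF45-AS1 held no match to any motif searched. The CpG count per window was 44 for RAB4A-AS1, 38 for ICA1-AS1, 37 for ZNF606-AS1, 27 for MCM3AP-AS1 and 18 for ZNF45-AS1. In GRCh38.p14 the window of RAB4A-AS1 shared 56 bases with that of RAB4A on the other strand. The windows of ZNF606-AS1 and ICA1-AS1 shared 173 and 157 bases with those of their sense genes, and those of MCM3AP-AS1 and ZNF45-AS1 shared 0.

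RefSeq windows were matched to 195 of the 290 antisense genes by gene identifier. Their median CpG count was 24, against 12 over all 22114 windows, and their median GC content was 64.3% against 57.7%. Unlike the antisense genes, the genes of all windows were not limited by counts in these libraries. The part of the count minimum in these differences was not tested. The GC box was in 59.5% of them and in 43.0% of all windows, and the TATA box (TATAAA) was in 5.64% and 12.7%. The CCAAT box was in 35.4% and 36.2%. Longer motifs were rare in both, such as 4.62% against 2.01% for CRE (TGACGTCA), 6.15% against 3.26% for the NRF1 core (GCATGCGC), 6.15% against 4.51% for the ETS core and 4.10% against 3.12% for YY1 (AAGATGGC). Both strands were searched, and no motif in the list contains another. A match describes the letters of a window and is not evidence of binding.

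The antisense genes were weakly expressed. Their counts together made up 0.197% and 0.220% of the library in KO1 and KO2 and 0.186% and 0.182% in WT1 and WT2, the highest share being in KO2. The WT mean ranged from 0.950 to 140 CPM (counts per 1000000 counted read pairs, scaled by the edgeR TMM factors), with a median of 2.87 CPM. Divided by exonic length, the WT level ranged from 0.158 to 51.0 CPM per kb with a median of 1.54. The exonic length was 447 to 13150 bases, and the median gene had 3 exon blocks, while 38 genes had 1. They lay on every chromosome but Y, with 36 on chromosome 1, 22 on chromosome 10 and 21 on chromosome 3.

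VPS9D1-AS1 had the highest level per length in WT, 51.0 CPM per kb. It had 83.7 and 81.8 CPM in KO1 and KO2 and 87.8 and 90.9 CPM in WT1 and WT2. Both KO libraries were below both WT libraries, by little, and the log2 fold change of -0.11 (SE 0.06) did not pass the test (adjusted p = 0.390, edgeR). FGD5-AS1 followed with 31.9 CPM per kb, and had 150 and 153 CPM in KO against 139 and 141 CPM in WT, a log2 fold change of 0.12 (SE 0.06, adjusted p = 0.369). Next were THAP9-AS1, opposite a gene for a transposase-derived protein, with 15.3 CPM per kb, ARRDC1-AS1 with 13.9, ATP2A1-AS1, opposite a calcium pump gene of muscle, with 12.9, and PTOV1-AS2 with 12.7. The log2 fold changes of these 4 lay between -0.07 and 0.15, and none passed the test.

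**Figure D1:**
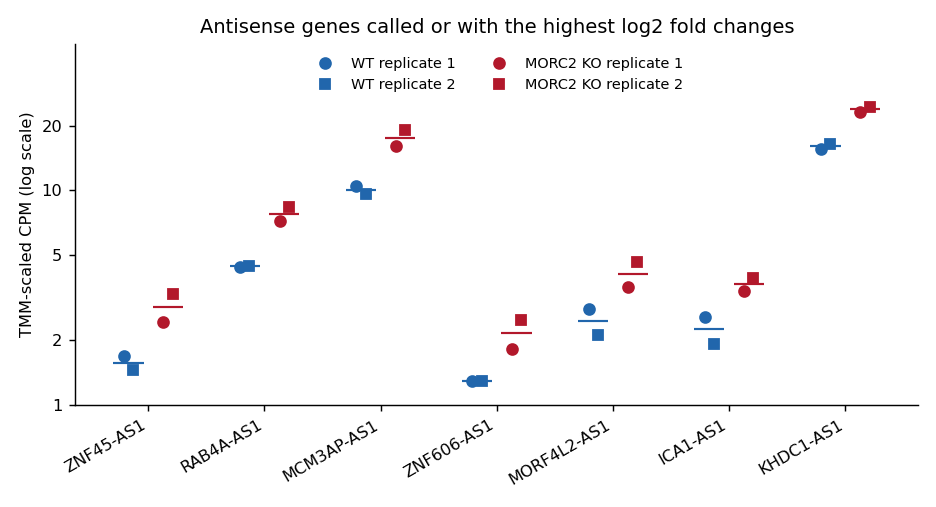
Level in each library (points, TMM-scaled CPM, log axis; lines, group means) of the 3 called antisense genes and of the 4 others among the 6 highest log2 fold changes whose KO and WT libraries did not overlap. In MCM3AP-AS1 the KO libraries lie at 16.0 and 19.1 CPM and the WT libraries at 10.5 and 9.64 CPM, and KO2 is above KO1 in every gene shown.

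MORC2 KO cells had more RNA of MCM3AP-AS1, KHDC1-AS1 and RAB4A-AS1, by 1.75-fold, 1.48-fold and 1.76-fold, and no antisense gene passed the test in the other direction. These 3 of 290 genes were called at an adjusted p under 0.05 in the quasi-likelihood F-test of edgeR, with p-values adjusted over all 16675 genes tested, where 0.588% of all genes were called higher and 0.03% lower. Among the 13438 genes with 50 or more counts in each library the shares called were 0.67% and 0.0372%. The sense genes of these 3 were not called. At an unadjusted p under 0.05, 55 of the 290 were higher (19.0%) and 0 were lower, against 8.14% and 6.17% of all genes tested and 8.63% and 7.37% of those with 50 or more counts in each library. DESeq2 also called 3 higher and 0 lower.

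MCM3AP-AS1 had 958 and 1265 counts in KO1 and KO2 and 623 and 513 in WT1 and WT2, or 17.6 ± 2.21 CPM against 10.1 ± 0.588 (SD, n = 2 each). Both KO libraries were above both WT libraries, with KO2 the highest. Its log2 fold change was 0.81 (SE 0.10, adjusted p = 0.00206, edgeR), and it stayed between 0.67 and 0.91 with each library left out in turn. The gene lies at chr21:44611786-44634290 on the plus strand of T2T-CHM13v2.0 and runs tail to tail into MCM3AP, which codes for a protein of mRNA export, and 9.91% of its exonic bases are exonic in MCM3AP too. MCM3AP had 14449 and 17431 counts in KO and 15743 and 13567 in WT, with a log2 fold change of -0.04 (SE 0.06, adjusted p = 0.813). The libraries of the sense gene overlapped between KO and WT.

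KHDC1-AS1 had 1389 and 1606 counts in KO1 and KO2 and 929 and 876 in WT1 and WT2, or 23.8 ± 0.761 CPM against 16.0 ± 0.599 CPM (SD, n = 2 each). The groups were separate and the spread within each was small. Its log2 fold change was 0.57 (SE 0.07, adjusted p = 0.00248, edgeR) and ranged from 0.53 to 0.61 with each library left out in turn. The gene, at chr6:74439880-74478043 on the plus strand, lies inside KHDC1, a gene for a KH-domain protein, and has the longest exonic sequence of the 290, 13150 bases. The annotation calls it a non-coding RNA pseudogene. Only 43 of its exonic bases, 0.327%, are shared with exons of KHDC1. KHDC1 was much weaker, with 85 and 106 counts in KO and 46 and 44 in WT. Its KO libraries were also above its WT libraries, and its log2 fold change of 0.92 (SE 0.23) did not pass the test (adjusted p = 0.127, edgeR). It passed with no filter on low counts (adjusted p = 0.00871), with a replicate block (0.0497) and without KO1 (0.0127), so the call of KHDC1 depends on the setting.

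RAB4A-AS1 had 428 and 551 counts in KO1 and KO2 and 261 and 237 in WT1 and WT2, or 7.75 ± 0.835 CPM against 4.42 ± 0.0471 CPM (SD, n = 2 each). The WT libraries were close to each other and both KO libraries were above them. Its log2 fold change was 0.81 (SE 0.12, adjusted p = 0.00702, edgeR), and 0.70 to 0.90 with each library left out in turn. The gene lies at chr1:228635568-228649830 on the minus strand and is head to head with RAB4A, which codes for a small GTPase of endosome recycling. Their exons share 44 bases, 1.08% of the exonic bases of RAB4A-AS1. RAB4A had 3485 and 3886 counts in KO and 3302 and 2979 in WT, with a log2 fold change of 0.07 (SE 0.06, adjusted p = 0.579).

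Within 100 kb of these 3 genes, 2 other genes were tested near KHDC1-AS1, 8 near MCM3AP-AS1 and 2 near RAB4A-AS1, and none of them was called. The library preparation captured polyA RNA and the counting did not use strand, so reads of an antisense gene and unspliced reads of the sense gene over the same bases cannot be told apart. Read pairs over exons of both genes were assigned to neither.

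The other antisense genes with high values did not pass the test as designed, although ZNF45-AS1, ZNF606-AS1, MORF4L2-AS1 and ICA1-AS1 did so in some other settings. Each passed in edgeR without KO1 and with no filter on low counts (adjusted p between 3.71e-04 and 0.0138 over both), and all but ZNF606-AS1 passed without WT1 and with a replicate block (adjusted p between 0.00625 and 0.0344). ZNF45-AS1 had the highest log2 fold change of the 290, 0.86 (SE 0.20, adjusted p = 0.10, edgeR), with 145 and 216 counts in KO against 101 and 77 in WT. It spans ZNF45, a zinc finger gene with a log2 fold change of 0.19 (adjusted p = 0.277). ZNF606-AS1, head to head with another zinc finger gene, had 109 and 164 counts in KO and 77 and 69 in WT, with a log2 fold change of 0.74 (adjusted p = 0.174), against 0.36 for ZNF606 (adjusted p = 0.127). In both pairs each KO library was above each WT library, for the antisense gene and for the sense gene.

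MORF4L2-AS1, opposite a gene for a chromatin complex subunit, had 211 and 305 counts in KO and 167 and 113 in WT and a log2 fold change of 0.72 (adjusted p = 0.128, edgeR), whereas MORF4L2 had 0.02 (adjusted p = 0.909). ICA1-AS1 shares no exonic base with another gene. It had 203 and 257 counts in KO and 153 and 102 in WT, with a log2 fold change of 0.69 (adjusted p = 0.127), against 0.33 for ICA1, an islet cell autoantigen gene (adjusted p = 0.314). The KO libraries were above the WT libraries in both antisense genes, with wide spread in WT. In all, 17 of the 290 had a log2 fold change of 0.5 or more, 0 had one of -0.5 or less, and 0 reached 1 in either direction. The count minimum bears on this, since 12 of the 354 tested antisense genes under it reached 1 in either direction.

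Among these 17, chosen for their size after the values were seen, were also FOXD2-AS1 (0.57, adjusted p = 0.136, edgeR), KCNMB2-AS1 (0.63, adjusted p = 0.164) and GABPB1-AS1 (0.54, adjusted p = 0.211). FOXD2-AS1 had 359 and 542 counts in KO and 282 and 257 in WT, GABPB1-AS1 had 429 and 671 against 407 and 270, and KCNMB2-AS1 had 147 and 172 against 98 and 86. In FOXD2-AS1 and GABPB1-AS1, KO1 was nearer to WT1 than to KO2. The sense gene GABPB1, a subunit of an ETS-family transcription factor, had a log2 fold change of -0.17, and FOXD2, a forkhead factor gene, had 0.14.

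The lowest log2 fold changes were smaller in size than the highest. Those given here are the 6 lowest among genes whose KO and WT libraries did not overlap in CPM, and IPO9-AS1, whose libraries overlapped, had -0.26. ITFG2-AS1 had 64 and 57 counts in KO1 and KO2 and 70 and 68 in WT1 and WT2, a log2 fold change of -0.35 (SE 0.24, adjusted p = 0.523, edgeR). CPEB1-AS1, opposite a gene for an RNA-binding protein of polyadenylation, had -0.29 (adjusted p = 0.374). CBLL1-AS1 and GALNT9-AS1 each had -0.28, and HOXD-AS2 and TAF1A-AS1 had -0.25. None of these was lower at an unadjusted p under 0.05 in edgeR. The sense genes ITFG2 and CPEB1 had values of the opposite sign, 0.16 and 0.19, which did not pass the test either.

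**Figure D2:**
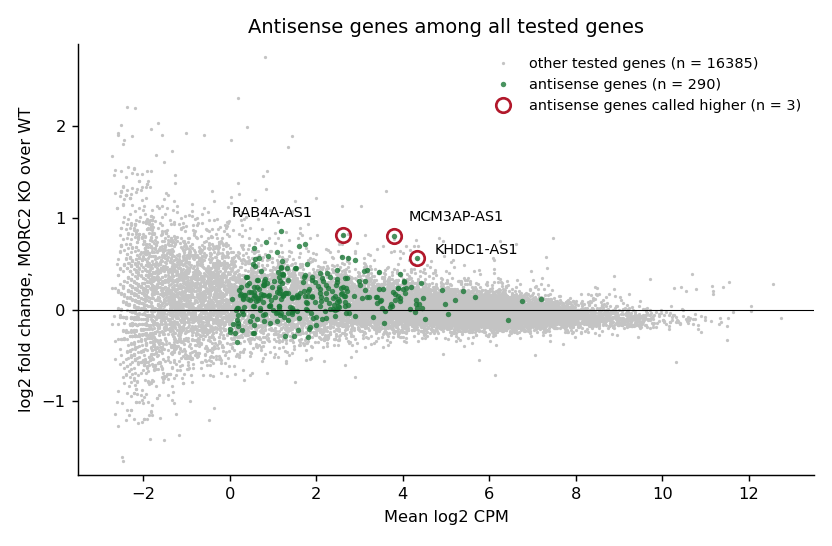
Log2 fold change (MORC2 KO over WT, vertical axis) against mean level (log2 CPM, horizontal axis) for the 290 antisense genes (green) and all other tested genes (grey), with the 3 called antisense genes ringed and named. The antisense genes lie mostly above 0, with a median of 0.14, and 172 of them are below 2 on the level axis.

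As a group, the antisense genes had higher values in MORC2 KO than all genes did. The median log2 fold change was 0.14 (quartiles 0.02 and 0.27, range -0.35 to 0.86), beside 0.005 over all 16675 genes tested, and 227 of the 290 (78.3%) had a positive value, beside 51.5%. Both KO libraries were above both WT libraries in 114 antisense genes (39.3%), against 24.1% of all genes tested, and below them in 18 (6.21%), against 23.4%. Among all genes with 50 or more counts in each library the shares were 23.5% above and 26.4% below. These are descriptions of a list chosen with earlier results known, with no test of the list. The median SE of a log2 fold change was 0.16, larger than the median itself, so that most single values could not be told from 0.

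The same held for other non-coding genes with 50 or more counts in each library. The 455 other long non-coding RNA genes had a median of 0.16 with 9 called higher (1.98%) and 1 lower. For the 109 LINC genes it was 0.19 with 5 (4.59%) and 1. The 97 divergent transcripts (symbols ending in -DT) had 0.17 with 2 (2.06%) and 0. Among all genes with the same count minimum 0.67% were called higher. In the 455, both KO libraries were above both WT libraries in 40.2% and below them in 9.45%, near the 39.3% and 6.21% of the antisense genes. At an unadjusted p under 0.05 in edgeR, 83 of the 455 were higher (18.2%) and 12 lower, beside 19.0% and 0 antisense genes. LINC and -DT genes were taken by symbol and were not kept apart from the 455, whose highest value was the 1.90 of ZNF22-AS1. The 12275 protein-coding genes had a median of -0.01, with 70 called higher and 4 lower (0.570% higher). The difference between antisense genes and these classes was not tested.

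**Figure D3:**
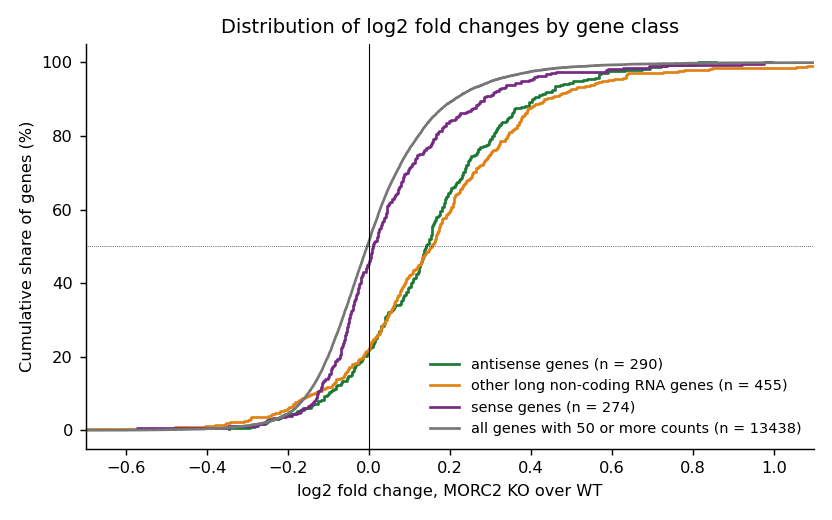
Cumulative share of genes (vertical axis, %) at or below each log2 fold change (MORC2 KO over WT, horizontal axis) for the 290 antisense genes, their 274 tested sense genes, the 455 other long non-coding RNA genes and all 13438 genes with 50 or more counts in each library. The curves of both non-coding classes run together to the right of the others, with medians of 0.14 and 0.16 against 0.01 for the sense genes and -0.005 for all genes.

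Weakly expressed genes in general had somewhat higher values. Among genes under 2 on the mean log2 CPM scale, the 172 antisense genes had a median log2 fold change of 0.14 and all 2046 genes one of 0.08. The medians were 0.16 and 0.07 between 2 and 3 (59 of 1212 genes), 0.14 and 0.04 between 3 and 4 (34 of 1449) and 0.11 and -0.03 at 4 and above (25 of 8731). The antisense genes were thus above the median of all these genes in each range of level. The tested sense genes had medians of 0.17 (41 genes), 0.17 (24), 0.05 (21) and -0.02 (188) in the same ranges. These were above the antisense medians in the ranges under 3 and below them from 3 up. With offsets fitted by loess to the level of each library, which centre genes of every level on 0, the median of the 290 was 0.07 and 193 were positive, and the number called remained 3.

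The KO libraries were not alike. Relative to the mean of the WT libraries, the median antisense gene was 0.08 higher in KO1 and 0.21 higher in KO2 on the log2 CPM scale, and 189 and 229 of the 290 were above that mean. KO2 was above KO1 in 205 genes, and over all 290 the median of KO2 minus KO1 was 0.13 and the median of WT1 minus WT2 was 0.04. Without regard to sign, the median difference was 0.19 between the KO libraries and 0.13 between the WT libraries. Over all genes with 50 or more counts in each library, the medians relative to WT were -0.003 for KO1 and -0.006 for KO2, and over the sense genes 0.003 and 0.02. Without KO2 the median log2 fold change of the antisense genes was 0.09, and without KO1 it was 0.20. The count called higher was 3 without KO2 or WT2, 9 (3.10%) without WT1 and 55 (19.0%) without KO1. More genes of all kinds were called in these fits too, 0.873% higher and 0.0527% lower over all genes tested without WT1, and 8.16% higher and 12.4% lower without KO1. Each gRNA was used for 1 library, so a difference between gRNAs and one between cultures cannot be told apart.

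**Figure D4:**
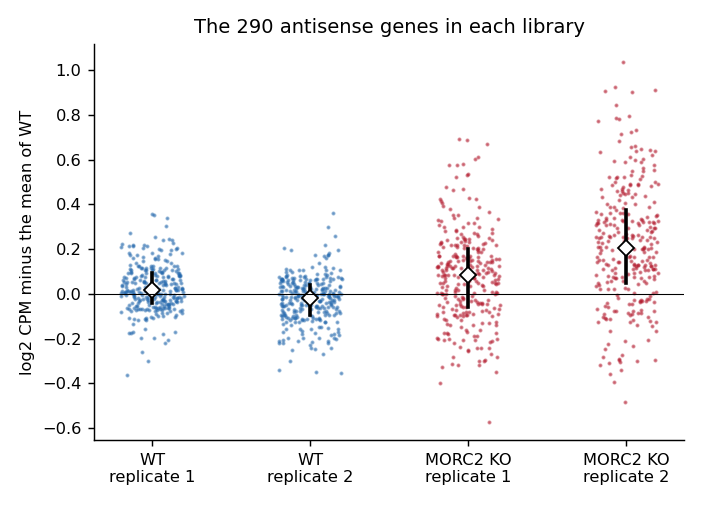
Each of the 290 antisense genes (points) in each library, as log2 CPM minus the mean of WT1 and WT2, with the median (diamond) and the quartiles (bar). The medians are 0.08 in KO1 and 0.21 in KO2, and the points of KO2 spread the widest.

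A sense gene in the table was found for 286 of the 290 antisense genes, 285 different genes, of which 274 were tested. No sense gene was matched for HOXA-AS3, HOXB-AS3, HOXD-AS2 and NDST2-ZSWIM8-AS1, whose names give a gene cluster or a gene pair, and FAM131B-AS2 lies on the same strand as FAM131B. Of the sense genes, 2 were called higher (0.730% of those tested) and 0 lower, near the 0.588% and 0.03% of all genes tested. At an unadjusted p under 0.05 in edgeR, 37 were higher (13.5%) and 12 lower, against 8.14% and 6.17% of all genes tested. The median log2 fold change of the sense genes was 0.01. The sense gene had the higher CPM in 225 of 275 pairs, with a median ratio of 10.3 in WT, and it was higher per kb of exon in 204.

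The log2 fold changes of antisense and sense genes were weakly related. Across the 275 pairs with both genes tested, Pearson's r of the log2 fold changes was 0.16 and Spearman's rho 0.19. The pairs share the same 4 libraries and are not independent, so no p is given. The antisense gene had the higher log2 fold change in 192 pairs. With loess offsets this was so in 162 pairs, with medians of 0.07 for the antisense and 0.03 for the sense genes. Without these offsets, both genes were above 0 in 122 pairs, the antisense gene alone in 93, the sense gene alone in 29 and neither in 31. In the 106 pairs with no shared exonic base r was 0.17, and in the 169 that share some it was 0.15.

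**Figure D5:**
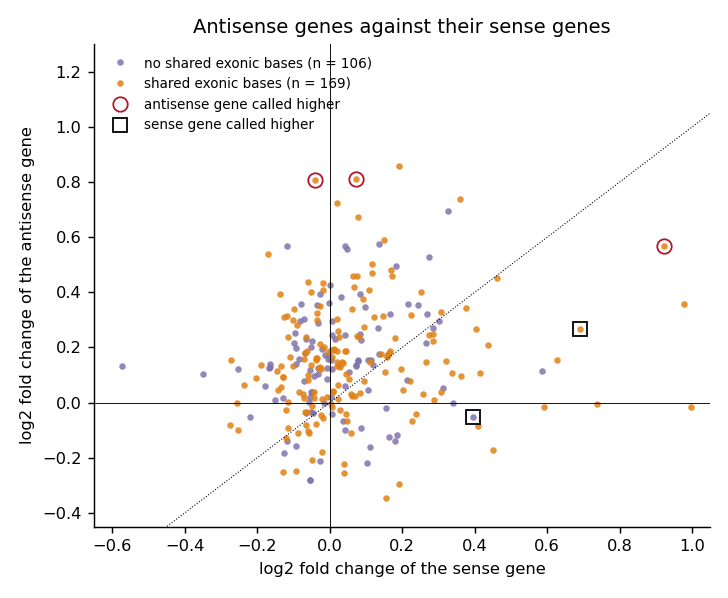
Log2 fold change (MORC2 KO over WT) of each antisense gene (vertical axis) against that of its sense gene (horizontal axis), 275 pairs, with pairs that share exonic bases marked apart from those that share none. Most points lie above the diagonal, 192 of 275, and the cloud has little slope, with r = 0.16.

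The median log2 fold changes lay between 0.08 and 0.16 across the arrangements of the pair. The 119 antisense genes that overlap a sense gene head to head had a median log2 fold change of 0.15 with 1 called, and the 58 that lie head to head without overlap had 0.16 with 0 called. The 52 that overlap tail to tail had 0.13 with 1 called, the 34 inside the sense gene 0.10 with 1 called, and the 17 that span it 0.08 with 0 called. The 5 that lie tail to tail and apart had 0.12. Where both starts were in RefSeq on opposite strands, 51 pairs started within 1000 bases of each other, and the antisense median was 0.13 in these and in the 55 farther apart, beside 0.04 for the sense genes of both sets. The single called genes were 0.840% of the 119, 1.92% of the 52 and 2.94% of the 34, where 0.588% of all genes tested were called higher. Differences between arrangements were not tested.

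Exonic overlap bears on how the counts were made, and 173 antisense genes share exonic bases with their sense gene. Over the 290, the share of exonic bases that another gene also covers had a median of 6.30% and a highest value of 78.2%, and 102 genes shared none. Medians of the log2 fold change were 0.15 for those 102, 0.13 for the 133 that share less than 20% and 0.15 for the 55 that share 20% or more. The 3 called genes share 0.327% to 9.91%.

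The 6 genes with the largest overlap had values near those of the other antisense genes. NDST2-ZSWIM8-AS1, with 78.2% shared, had 199 and 281 counts in KO1 and KO2 and 195 and 170 in WT1 and WT2, a log2 fold change of 0.23 (adjusted p = 0.510, edgeR). TTN-AS1, opposite the titin gene, has 22 exon blocks and shares 70.4%. It had 300 and 353 counts in KO and 317 and 264 in WT, which overlap, and a log2 fold change of 0.01, against 0.29 for TTN (adjusted p = 0.378). The others were ELOA-AS1 (71.0% shared, log2 fold change 0.05), PITPNA-AS1 (68.4%, 0.03), ZRANB2-AS1 (63.6%, 0.20) and A1BG-AS1 (59.9%, 0.15), and none passed the test.

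The sense genes PCSK6 and ZNF232 were called, and their antisense genes were not. PCSK6, a proprotein convertase gene, had 3524 and 4329 counts in KO and 2798 and 2540 in WT and rose by 0.39 (SE 0.06, adjusted p = 0.0136, edgeR). PCSK6-AS1, inside it with no shared exonic base, had 65 and 71 counts in KO and 77 and 50 in WT, which overlap, and a log2 fold change of -0.05 (SE 0.25, adjusted p = 0.942). ZNF232, a zinc finger gene, had 1432 and 1502 counts in KO and 840 and 788 in WT and rose by 0.69 (SE 0.07, adjusted p = 7.30e-04). ZNF232-AS1, which shares 38.7% of its exonic bases with it, had 347 and 401 counts in KO and 281 and 274 in WT. Its libraries were separate, and its log2 fold change of 0.27 (SE 0.12) did not pass the test (adjusted p = 0.333).

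In all, 5 antisense genes lay within 100 kb of a called gene. Beside those of PCSK6 and ZNF232 these were HOXB-AS3 near HOXB9, SLC25A5-AS1 near SLC25A43 and SH3BP5-AS1 near COL6A4P1, with log2 fold changes of 0.32, 0.16 and 0.12 for the antisense genes and 0.42, 0.78 and 1.52 for the called genes. The median over the 5 was 0.16, and it was 0.14 over the 285 others.

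Antisense genes were also grouped by the kind of sense gene, from the start of the symbol. Of the 19 opposite zinc finger genes, 0 were called and 10 (52.6%) were higher and 0 lower at an unadjusted p under 0.05 in edgeR. In 12 (63.2%) both KO libraries were above both WT libraries, and in 0 below. Of all genes with 50 or more counts in each library, 8.63% were higher and 7.37% lower at that p. Both KO libraries were above both WT libraries in 23.5% of these and below in 26.4%. The difference between this list and all genes was not tested. Their median log2 fold change was 0.27, beside 0.14 over all 290, and that of their sense genes was 0.10. The antisense gene was above the sense gene in 16 of the 19 pairs. ZNF45-AS1 and ZNF606-AS1 led the list, and ZNF232-AS1 had its median value.

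The 17 opposite developmental transcription factor genes, a list that by its prefixes also takes PAXIP1-AS2 and PAXBP1-AS1, had a median of 0.21, with 0 called and 2 higher at an unadjusted p under 0.05. In this list HOXD-AS2 had 79 and 83 counts in KO and 94 and 79 in WT, while HOXB-AS3 had 124 and 182 in KO and 112 and 107 in WT. The list thus held members on either side of 0, 13 positive and 4 negative. The 14 opposite transporter genes had a median of 0.18, with 6 higher at an unadjusted p under 0.05, 8 positive and 6 negative. The 7 opposite RNA processing genes had 0.23 (3 higher at an unadjusted p under 0.05), the 10 opposite ubiquitin and proteasome genes 0.04 (1), and the 3 opposite mitochondrial and ribosomal genes 0.14 (1). In each of these 5 lists 0 genes were called and 0 were lower at an unadjusted p under 0.05.

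Of 31 antisense RNAs listed for published roles, 21 had the counts required. Of these, MCM3AP-AS1 was called (4.76% of the 21). At an unadjusted p under 0.05 in edgeR, 6 of the 21 were higher (28.6%) and 0 lower, and their median log2 fold change was 0.16. Over all genes tested 0.588% were called higher, and 8.14% were higher and 6.17% lower at that p. OIP5-AS1, the human counterpart of the cyrano RNA that binds a microRNA, had 6332 and 7746 counts in KO and 6229 and 5575 in WT and a log2 fold change of 0.09 (SE 0.06, adjusted p = 0.516, edgeR). RBM5-AS1, inside the gene of a splicing regulator, had 512 and 709 in KO and 498 and 383 in WT, with 0.31 (SE 0.12, adjusted p = 0.302). NNT-AS1, head to head with the gene of a mitochondrial transhydrogenase, had 865 and 1151 in KO and 769 and 755 in WT, with 0.24 (SE 0.10, adjusted p = 0.314). In these 3 both KO libraries were above both WT libraries in CPM. MNX1-AS1, opposite a homeobox gene, had 0.16 and MAPKAPK5-AS1 had 0.01, and in both KO and WT overlapped. The 207 antisense genes in no list had a median of 0.14, with 2 called higher and 29 higher at an unadjusted p under 0.05.

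At the count minimum, the last genes kept were PCSK6-AS1 and TRAPPC12-AS1 with a lowest count of 50 and BAZ2B-AS1 with 51, with log2 fold changes of -0.05, -0.21 and 0.12. The first left out were ITPR3-AS1 and NPPA-AS1 with 49 and NAPA-AS1 with 48, with -0.16, -0.16 and 0.08.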

How the data were processed

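Per the labels and the file header, the authors used Subread 2.0.6 to align 65-base read pairs to the T2T-CHM13v2.0 genome and deposited raw counts of read pairs per gene from featureCounts on strict RefSeq genes. The command recorded with the counts had an option for multi-mapping reads, which the methods do not mention, and none for strand or for reads over several genes. The deposited counts for 4 samples (2 per genotype) summed to 53970043 to 64312514, and 0 columns belonged to other samples. Exonic overlap, lengths and gene coordinates came from the deposited table.

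Symbols were looked up by Entrez identifier in the RefSeq gene table for GRCh38.p14 (28763 of 28775 matched), and promoter sequences from RefSeq of the same build, with no conversion between builds. Counts were tested with edgeR 4.0.16 in R 4.3.3 (filterByExpr, TMM factors, quasi-likelihood F-test, Benjamini-Hochberg adjustment over all genes tested, adjusted p under 0.05), after a check on simulated data. Log2 levels per library used CPM plus 0.05. Called was any gene past that threshold. Alternatives were DESeq2 1.42.0, other scalings, filters and count minimums, loess offsets (span 0.3), a replicate block, and each library left out.

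The members and lists were chosen with earlier results of these data known. Named were the called genes, the 6 highest and 6 lowest log2 fold changes with separate libraries, the 6 highest levels per kb, the 6 largest overlaps, up to 8 antisense RNAs with published roles, genes with a called sense gene, the sense genes of all these, and MORC2. The methods describe independent WT replicates and KO lines made with different gRNAs. The SE of a log2 fold change was 0.0562 to 0.307 over the 290 genes, whose median count per library was 150.5 to 225.5.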

Additional observations from a re-analysis of the deposited data

How the results depend on the processing

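The 3 called antisense genes were called higher in all 9 alternatives and in all 4 fits that left out a library, and 0 were called lower in any of them. The number called higher was 3 in most settings, 20 (6.90%) with no filter on low counts, and 12 (4.14%) with the replicate number as a block, where 2.04% and 1.42% of all genes were called higher. The labels do not say whether the same number marks a shared day or batch in KO and WT. The correlation of same-numbered deviations was -0.12, which does not settle this. With the numbers crossed, a setting chosen after seeing the data, 40 (13.8%) were called, beside 5.42% of all genes higher and 4.85% lower. With each library left out it ranged from 3 to 55, the latter without KO1, where 8.16% of all genes were called higher. There the lone library of a group is assumed to vary like the other group. The count with both KO above both WT libraries was 63 with a minimum of 200 counts, out of a smaller number of genes that is not given here. It ranged from 140 to 203 with each library left out, 203 being without KO1 and 179 without WT1. Separation is easier there, because fewer libraries have to be separate. The shares over all genes are not given for these settings, so these counts cannot be set against those of all genes. The correlation of antisense with sense genes was 0.17 without shared bases and 0.18 with loess offsets, against 0.16.

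The median log2 fold change was 0.07 with loess offsets and 0.18 with scaling by library size alone, which moved the median of all genes to 0.05. For the 62 named genes, sense genes included, 806 alternative values were computed, of which 739 kept direction and side of the threshold, 38 newly passed it and 29 changed sign. Of the antisense genes, those that newly passed were ICA1-AS1, MORF4L2-AS1 and ZNF45-AS1 (no filter, block, crossed block, without KO1 and without WT1), ZNF606-AS1 (no filter, crossed block and without KO1), NNT-AS1 and RBM5-AS1 (crossed block and without KO1) and OIP5-AS1 (without KO1). The values that changed sign were small values that did not pass the test. With loess offsets the values were -0.047 for ELOA-AS1, -0.015 for MAPKAPK5-AS1, 0.027 for MCM3AP, -0.030 for PITPNA-AS1, -0.055 for TTN-AS1 and 0.043 for ZRANB2, and by library size alone they were 0.00099 for MCM3AP and 0.023 for ZRANB2. With each library left out, values ranged from -0.029 to 0.30 for A1BG-AS1, -0.031 to 0.066 for ARRDC1-AS1, -0.051 to 0.44 for ATP2A1, -0.13 to 0.23 for ELOA-AS1, -0.36 to 0.17 for GALNT9, -0.019 to 0.059 for MAPKAPK5, -0.14 to 0.14 for MAPKAPK5-AS1, -0.10 to 0.0092 for MCM3AP, -0.027 to 0.058 for MORF4L2, -0.018 to 0.057 for NNT, -0.26 to 0.20 for PCSK6-AS1, -0.10 to 0.15 for PITPNA-AS1, -0.014 to 0.068 for PTOV1, -0.040 to 0.062 for TTN-AS1 and -0.038 to 0.0034 for ZRANB2. The cause of these changes was not tested. The parts of counting error and of the spread between libraries in the median SE of 0.16 were not separated.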

Other observations

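Antisense genes under the count minimum numbered 1283, of which 354 passed the filter on low counts. None of these was called in edgeR, and their median log2 fold change was 0.21. At an unadjusted p under 0.05 in edgeR, 24 were higher (6.78%) and 0 lower, against 8.14% and 6.17% of all genes tested. ZNF32-AS2 on chromosome 10 had 75 and 136 counts in KO1 and KO2 and 48 and 45 in WT1 and WT2, a log2 fold change of 1.01 (SE 0.27, adjusted p = 0.153, edgeR). UGDH-AS1, whose RNA is named for the gene of a sugar nucleotide dehydrogenase, had 94 and 124 counts in KO and 45 and 59 in WT, with 0.90 (SE 0.24, adjusted p = 0.155). TAB3-AS1 on chromosome X had 23 and 46 counts in KO and 10 and 12 in WT, with 1.47 (SE 0.44, adjusted p = 0.192). In these 3, the lowest unadjusted p-values of the 354, both KO libraries were above both WT libraries.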
